A study of Mus musculus with 5 samples.

Results

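The aryl hydrocarbon receptor pathway was followed through 7 genes in 5 preparations of mouse T helper cells: the receptor *Ahr*, its partner *Arnt*, and the targets *Ahrr*, *Cyp1a1*, *Cyp1b1*, *Tiparp* and *Nqo1*. They are 7 of the 22180 genes that the array annotation names. The annotation gives these symbols to 8 transcript clusters (groups of probes for 1 transcript or gene), and each gene is read from its brightest cluster by mean signal. The genes were selected on their levels with and without TGF-β in these same arrays, so the differences given here describe them and are no independent evidence for the pathway. Naive CD4+ CD62L+ T cells from the spleens of TRP-1 mice, which carry a T cell receptor transgene against the melanocyte protein TRP-1, were primed for 3 days with peptide and irradiated, T cell-depleted spleen cells of C57BL/6 mice as antigen-presenting cells. The methods state mice of both sexes at 6 to 8 weeks of age and mention no sorting step between culture and RNA extraction. They name a *Rag1* mutation and the B-w allele of *Tyrp1* in the TRP-1 strain. The sources used here do not give the number of mice in a preparation.

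Each condition has 1 array and no replicate, so every difference given compares a single pair of arrays and carries no p-value. Classic Th9 cells, labelled Th9(IL4+TGFb), were given 10 ng/ml of IL-4, 1 ng/ml of TGF-β, and 10 µg/ml of an antibody that blocks IFN-γ. The triple Th9 culture, labelled Th9(IL4+TGF-b+IL-1b), had 10 ng/ml of IL-1β as well. The IL-1β Th9 culture, labelled Th9(IL4+IL-1b), had IL-1β but no TGF-β. Th2 cells had IL-4 and the same antibody, with 100 U/ml of IL-2 but neither TGF-β nor IL-1β. Th1 cells had 100 U/ml of IL-2, 5 ng/ml of IL-12, and 10 µg/ml of an antibody that blocks IL-4. TGF-β can thus be compared without IL-1β (classic Th9 against Th2) and with it (triple Th9 against IL-1β Th9), in comparisons that share no array. IL-1β can likewise be compared with TGF-β (triple Th9 against classic Th9) and without it (IL-1β Th9 against Th2). In both comparisons against Th2 cells, the added cytokine and the absence of IL-2 cannot be told apart.

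AHR is a transcription factor of the basic helix-loop-helix PAS family that waits in the cytoplasm with chaperones until a small molecule, such as a dioxin or a product of tryptophan, binds it. It then enters the nucleus, pairs with ARNT and binds DNA at short elements with the core GCGTG, where it turns on enzymes that oxidize its ligands and proteins that shut it off again. In CD4+ T cells the receptor is best known from Th17 cells, Th22 cells and regulatory T cells, and TGF-β takes part in the differentiation of several of these.

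The promoter windows of the targets show where this core lies near the start of each gene. RefSeq windows (build GRCm38.p6, 250 bases before to 50 after the start, 300 in all) were found for 6 of the 7 genes, all but *Ahr*, and 5 of these held GCGTG or, on the other strand, CACGC. The core is short and frequent: 32.4% of all 32851 windows held it at least once, so its presence sets these genes little apart. Hypoxia-inducible factors, which also pair with ARNT, can bind the same letters. The windows of the 4 targets with the core are shown 5′ to 3′ on the gene's strand, with each core in capitals.
Cyp1a1 (chr9:57697363-57697662, + strand): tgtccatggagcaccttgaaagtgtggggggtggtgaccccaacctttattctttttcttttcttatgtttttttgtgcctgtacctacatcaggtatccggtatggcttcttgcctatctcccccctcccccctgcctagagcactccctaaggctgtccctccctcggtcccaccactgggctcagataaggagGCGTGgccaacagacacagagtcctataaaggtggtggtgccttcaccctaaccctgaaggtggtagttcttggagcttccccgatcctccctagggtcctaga
Ahrr (chr13:74292282-74292581, - strand): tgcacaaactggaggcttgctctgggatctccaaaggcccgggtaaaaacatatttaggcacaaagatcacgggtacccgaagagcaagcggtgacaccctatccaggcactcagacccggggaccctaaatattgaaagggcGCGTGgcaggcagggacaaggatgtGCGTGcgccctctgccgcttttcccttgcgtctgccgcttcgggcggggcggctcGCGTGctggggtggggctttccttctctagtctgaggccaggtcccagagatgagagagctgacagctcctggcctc
Cyp1b1 (chr17:79715012-79715311, - strand): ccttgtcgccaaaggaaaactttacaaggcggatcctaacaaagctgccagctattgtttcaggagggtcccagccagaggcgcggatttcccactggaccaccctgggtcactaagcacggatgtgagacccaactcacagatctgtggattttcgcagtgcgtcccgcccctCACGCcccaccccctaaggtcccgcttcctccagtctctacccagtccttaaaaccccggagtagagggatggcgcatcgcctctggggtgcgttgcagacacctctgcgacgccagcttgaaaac
Tiparp (chr3:65528197-65528496, + strand): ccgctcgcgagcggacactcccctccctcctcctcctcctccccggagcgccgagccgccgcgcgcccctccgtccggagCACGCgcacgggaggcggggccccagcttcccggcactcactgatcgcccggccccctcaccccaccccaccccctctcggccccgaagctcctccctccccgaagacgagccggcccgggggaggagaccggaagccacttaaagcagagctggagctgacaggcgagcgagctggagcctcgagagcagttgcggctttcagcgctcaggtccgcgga
*Ahrr* held 3 cores, which began 107, 82 and 27 bases before the start. At least 3 cores were present in 3.91% of all windows. The core nearest the start of *Ahrr* also has the longer form TNGCGTG, which 5.07% of all windows held. The windows of the other genes here did not hold it. *Cyp1a1* held 1 core, 54 bases before the start, on the gene's strand. In *Cyp1b1* and *Tiparp* the core lay on the other strand, 76 and 170 bases before the start. *Arnt* held 1 core, 29 bases before the start (window chr3:95434140-95434439, + strand). The window of *Nqo1* (chr8:107403156-107403455, - strand) did not hold these letters. A match is a stretch of letters and not a measured binding site. Sequence outside the windows was not searched, so elements further from the start are not counted here.

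**Figure D1:**
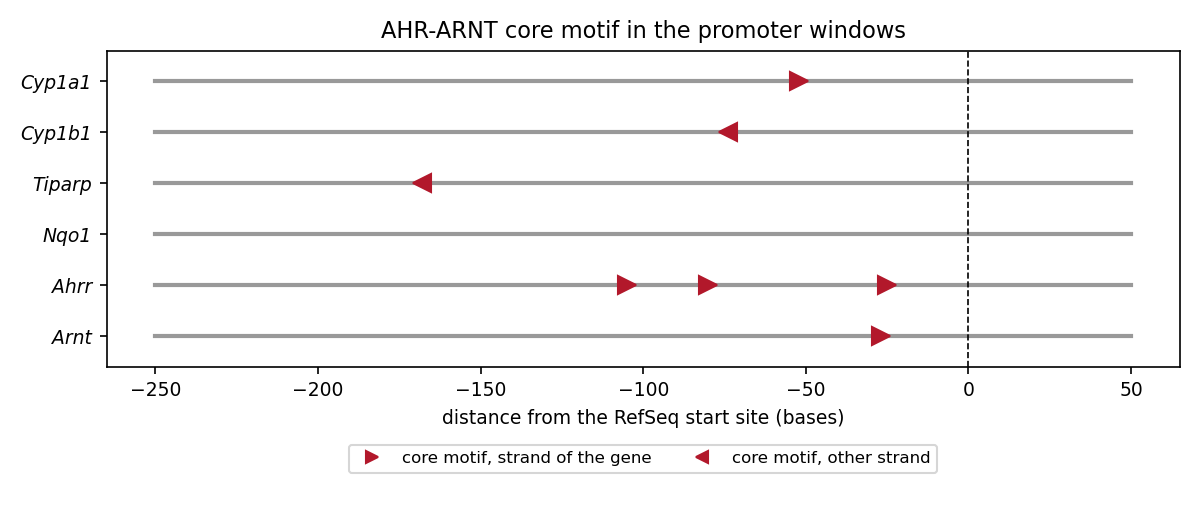
Positions of the AHR-ARNT core in the promoter windows, as distance in bases from the start of each gene, with triangles that point right for the gene's strand and left for the other strand. *Ahrr* has 3 cores on its own strand, *Arnt*, *Cyp1a1*, *Cyp1b1* and *Tiparp* have 1 each, and *Nqo1* has none.

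The values are log2 signals from Affymetrix Mouse Gene 2.0 ST arrays, background-corrected and normalized together by the authors, and a difference of 1 is 2-fold. Array medians lay between 5.41 and 5.44 for the 41345 transcript clusters. The 1108 olfactory receptor transcripts, whose genes belong to the nose, served as dim signals. Their 95th percentile lay between 5.32 and 5.39, and all 7 pathway genes were above it in all 5 arrays. The SD of their differences between arrays was 0.246 to 0.299 in the 6 comparisons made. It is given as a yardstick for neighbouring values and does not replace the error between replicate cultures. In RNA of a whole culture, fewer cells of a type and less RNA per cell cannot be told apart.

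*Ahr* itself was higher in each of the 4 arrays whose medium held IL-4 than in Th1 cells. Its log2 signal was 8.98 in classic Th9 cells, 8.88 in triple Th9 cells, 8.63 in IL-1β Th9 cells, 8.46 in Th2 and 7.44 in Th1 cells. The difference with TGF-β was 0.52 without IL-1β and 0.25 with it. Both TGF-β arrays were the highest, but none of the steps between neighbouring arrays from classic Th9 down to Th2 cells exceeded the spread of the dim signals, while the step of 1.02 between Th2 and Th1 cells did. *Arnt*, the partner that the receptor shares with the hypoxia-inducible factors, varied least of the 7 genes. It was at 9.92 in classic Th9, 9.9997 in triple Th9, 9.95 in IL-1β Th9, 9.88 in Th2 and 9.61 in Th1 cells, a range of 1.31-fold, against 2.91-fold for *Ahr*. Its differences with TGF-β were 0.04 and 0.05.

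The target that differed most was *Cyp1a1*, the xenobiotic monooxygenase whose transcript is the usual readout of an active receptor. It was at 9.23 in classic Th9 and 9.21 in triple Th9 cells, against 7.40 in IL-1β Th9, 7.48 in Th2 and 6.86 in Th1 cells. The 2 arrays with TGF-β lay 0.02 apart, and so did not differ beyond the spread, and both stood above all 3 arrays without it. The difference was 1.76 (3.38-fold) without IL-1β and 1.81 (3.51-fold) with IL-1β. Among the 22180 genes, *Cyp1a1* ranked at position 4 from the top in the comparison without IL-1β and at position 1 in the comparison with it. Only 12 genes were at least 2-fold higher in both comparisons, and of the pathway genes *Cyp1a1* alone was among them.

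*Cyp1b1*, a related monooxygenase that acts on steroids and polycyclic hydrocarbons, had a different order. It was at 7.93 in classic Th9 and 7.39 in triple Th9 cells, against 6.72 in IL-1β Th9, 6.46 in Th2 and 8.33 in Th1 cells. Among the 4 arrays with IL-4 the TGF-β arrays were the higher ones, by 1.47 without IL-1β and 0.68 with it, but the highest value of all was that of Th1 cells. The profiles of *Cyp1a1* and *Cyp1b1* were the most distant pair of the 7 genes (Euclidean distance of the centred profiles 2.54, where *Ahrr* and *Tiparp*, the closest pair, were 0.51 apart).

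**Figure D2:**
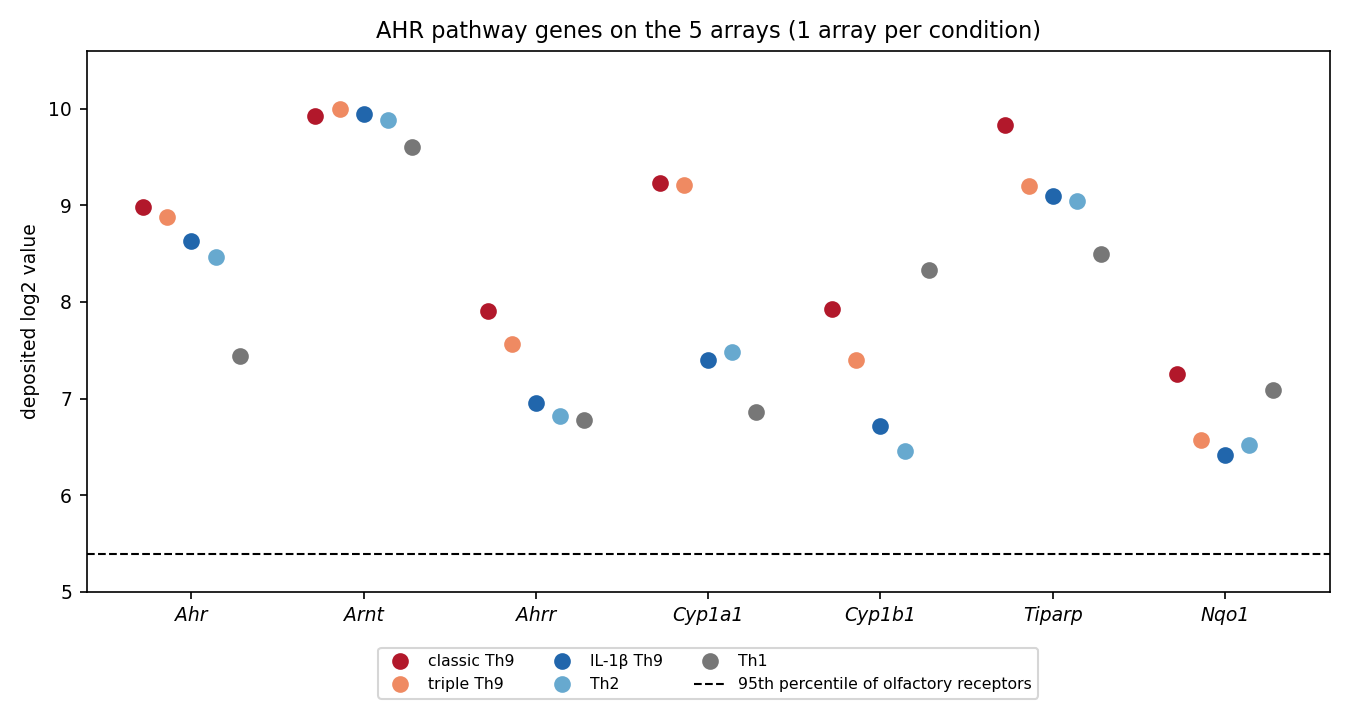
Log2 signal of each of the 7 genes in the 5 arrays, with 1 point per array, the TGF-β arrays on the left. *Cyp1a1* is above 9 in both TGF-β arrays and below 7.5 in the others, *Arnt* stays between 9.61 and 9.9997, and *Cyp1b1* has its highest value in Th1 cells.

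The feedback genes *Ahrr* and *Tiparp* were highest in classic Th9 cells. *Ahrr* encodes the AHR repressor, which competes with the receptor for ARNT and for its DNA elements. It was at 7.90 in classic Th9 and 7.56 in triple Th9 cells, against 6.95 in IL-1β Th9, 6.82 in Th2 and 6.78 in Th1 cells. The 3 arrays without TGF-β did not differ beyond the spread, and the TGF-β arrays were above them by 1.08 without IL-1β and 0.61 with it. *Tiparp* encodes a poly(ADP-ribose) polymerase family enzyme that modifies the receptor and limits its activity. It was at 9.83 in classic Th9 cells and 9.20 in triple Th9 cells, against 9.09 in IL-1β Th9, 9.04 in Th2 and 8.49 in Th1 cells. Its difference with TGF-β was 0.79 without IL-1β but 0.10 with it, and the triple Th9, IL-1β Th9 and Th2 arrays could not be told apart. A second, dim transcript cluster of *Tiparp*, between 3.37 and 4.04 and never above the dim signals, was also highest in classic Th9 cells.

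*Nqo1*, a quinone reductase that NRF2 controls as well as AHR, was at 7.26 in classic Th9 and 6.57 in triple Th9 cells, against 6.42 in IL-1β Th9, 6.52 in Th2 and 7.09 in Th1 cells. The classic Th9 and Th1 arrays formed the upper pair, and the other 3 lay within the spread of each other. The difference with TGF-β was 0.74 without IL-1β and 0.16 with it.

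Counted together, 3 of the 7 genes (*Ahrr*, *Cyp1a1* and *Cyp1b1*) were at least 2-fold higher in classic Th9 than in Th2 cells, where 0.180% of all genes were, and none was 2-fold lower, where 0.311% of all genes were. *Ahrr* was just past that limit, and was at 0.89 with the arrays centred on T cell markers and at 0.98 on the scale of log2(value + 16), which leaves 2 genes. At 1.5-fold, *Tiparp* and *Nqo1* joined them, which makes 5 of 7 higher (1.28% of all genes) and 0 lower (1.77%). In triple Th9 against IL-1β Th9 cells, *Cyp1a1* alone was 2-fold higher (0.104% of all genes) and 0 were lower (0.293%), and at 1.5-fold 3 were higher (*Ahrr*, *Cyp1a1* and *Cyp1b1*, against 1.21% of all genes) and 0 lower (1.79%). With the arrays centred on T cell markers, *Ahrr*, at 0.43, and *Cyp1b1*, at 0.50, fell short of 1.5-fold in that comparison. *Ahrr* also did on the scale of log2(value + 16), at 0.55. In classic Th9 against Th2 cells, *Nqo1* fell short with the T cell marker centring, at 0.55. Both TGF-β arrays lay above all 3 others for 4 genes, *Ahr*, *Ahrr*, *Cyp1a1* and *Tiparp* (12.2% of all genes), and below all 3 for 0 (9.90%). For *Ahr* and *Tiparp* the step to the next array, 0.25 and 0.10, was within the SD of the dim signals, 0.283. The order held for 3 genes with T cell marker centring or with the mean over transcript clusters, and for 5 with 75th-percentile centring. Without the Th1 array, *Cyp1b1* and *Nqo1* also met that order, 6 of 7 in all, as did 21.8% of all genes. The highest and lowest array were at least 2-fold apart for 5 genes, all but *Arnt* and *Nqo1*, and for 3.94% of all genes. Since these values chose the genes, the counts are not set against these shares. All 7 were higher with TGF-β in both comparisons, as were 31.8% of all genes, but with the arrays centred on T cell marker genes *Arnt* turned lower in both, and *Tiparp* and *Nqo1* turned lower in the comparison with IL-1β, as did *Tiparp* with the mean over its transcript clusters.

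**Figure D3:**
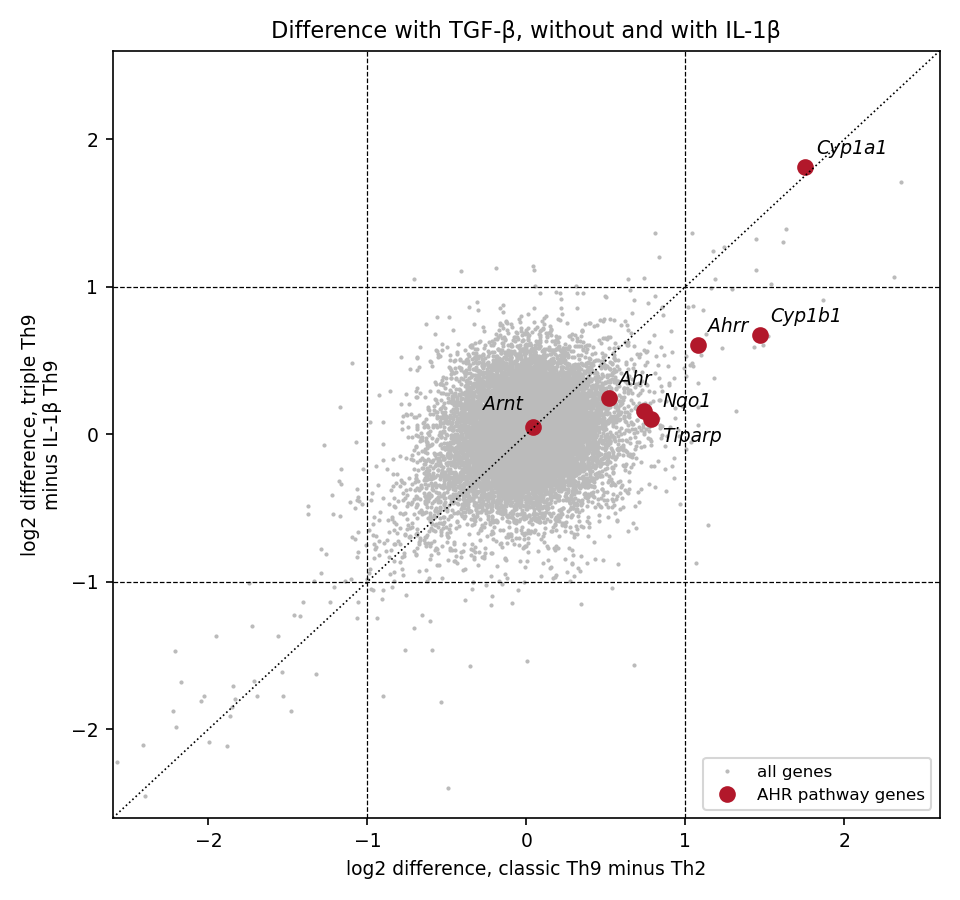
Log2 difference with TGF-β for every gene, without IL-1β on the x axis and with IL-1β on the y axis, the 7 pathway genes in red, 2-fold limits dashed and the line of equal differences dotted; 4 genes lie outside the plotted range. *Cyp1a1* is on the line at 1.76 and 1.81, and *Ahr*, *Ahrr*, *Cyp1b1*, *Tiparp* and *Nqo1* lie below it.

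With IL-1β and without IL-2 or TGF-β, the pathway genes were close to their Th2 levels. In IL-1β Th9 against Th2 cells the differences ran from -0.10 for *Nqo1* to 0.26 for *Cyp1b1*. None of the 7 reached 2-fold in either direction (0.171% of all genes were higher and 0.0766% lower) or 1.5-fold (1.25% higher and 1.14% lower). *Ahr* differed by 0.17, *Arnt* by 0.07, *Ahrr* by 0.13, *Cyp1a1* by -0.08 and *Tiparp* by 0.05.

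On top of TGF-β, IL-1β went with lower values of *Nqo1*, *Tiparp*, *Cyp1b1* and *Ahrr*, but *Cyp1a1* hardly differed. In triple Th9 against classic Th9 cells, *Nqo1* differed by -0.68, *Tiparp* by -0.63, *Cyp1b1* by -0.53 and *Ahrr* by -0.34, beyond the dim-signal SD of 0.268. Counted from the lowest of the 22180 genes, they ranked at positions 141, 183, 355 and 1233. *Ahr*, at -0.10, *Cyp1a1*, at -0.02, and *Arnt*, at 0.08, were within it. None of the 7 reached 2-fold (0.126% of all genes were higher and 0.113% lower), and at 1.5-fold *Tiparp* and *Nqo1* were lower (1.10% of all genes) and 0 were higher (0.861%). With the arrays centred on T cell markers, *Tiparp*, at -0.50, and *Nqo1*, at -0.55, fell short of 1.5-fold. *Ahrr*, at -0.21, was then within the dim-signal SD. The difference with TGF-β was also compared with and without IL-1β. The gap, with minus without, was -0.79 for *Cyp1b1*, -0.68 for *Tiparp*, -0.58 for *Nqo1*, -0.47 for *Ahrr* and -0.27 for *Ahr*. It was 0.06 for *Cyp1a1* and 0.01 for *Arnt*. The same quantity had an SD of 0.407 over the dim signals, and the gap of *Ahr* was within it. Genes picked for a high first value tend to a smaller second one: of the 284 genes at least 1.5-fold higher with TGF-β without IL-1β, 93.0% had a smaller difference with it and 17.3% were still 1.5-fold higher, as were 3 of the 5 pathway genes. With the T cell marker centring, *Ahrr* and *Cyp1b1* were no longer 1.5-fold higher with TGF-β in the presence of IL-1β.

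**Figure D4:**
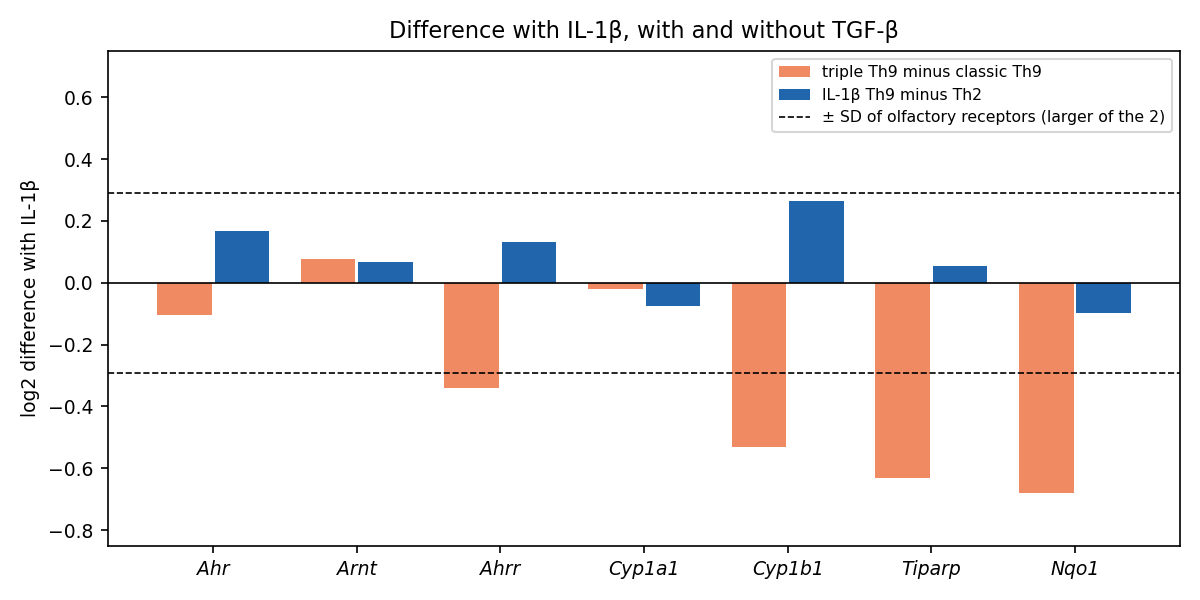
Log2 difference with IL-1β for the 7 genes, with TGF-β present and absent, and dashed lines at plus and minus the larger SD of the olfactory receptor transcripts in these comparisons. *Tiparp*, *Nqo1*, *Cyp1b1* and *Ahrr* pass the lower line where TGF-β was present, no gene passes a line where it was absent, and *Cyp1a1* is near 0 in both.

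The direct comparison of the 2 ways to Th9 cells gave lower values of the targets in IL-1β Th9 than in classic Th9 cells. *Cyp1a1* differed by -1.83 and *Cyp1b1* by -1.21, both past 2-fold (0.374% of all genes were that much lower), while 0 of the 7 were 2-fold higher (0.609%). *Ahrr* differed by -0.95, *Nqo1* by -0.84 and *Tiparp* by -0.73, which makes 5 of 7 at least 1.5-fold lower (2.34% of all genes) and 0 higher (2.69%). *Ahr* differed by -0.35 and *Arnt* by 0.03. With the arrays centred on T cell markers, *Cyp1b1* was at -0.90, which leaves *Cyp1a1* alone past 2-fold, and *Tiparp*, at -0.43, and *Nqo1*, at -0.53, were no longer past 1.5-fold, while *Ahr* was at -0.04. Both arrays also enter the comparisons above.

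Th2 against Th1 cells, neither with TGF-β, split the pathway. *Ahr* was 1.02 higher in Th2 cells, just past 2-fold (1.24% of all genes) and not past it under 3 other settings, and *Cyp1b1* was lower, at -1.87 (0.803%). At 1.5-fold *Cyp1a1* was also higher, by 0.62, which makes 2 higher (3.29% of all genes) and 1 lower (2.55%). *Tiparp* was 0.55 higher, *Nqo1* was lower, at -0.57, *Arnt* was 0.28 higher, and *Ahrr* differed by 0.04. The Th1 array, with less receptor transcript, had the higher *Cyp1b1* and *Nqo1* and the lower *Cyp1a1*.

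Other genes tied to the receptor differed with TGF-β in either direction. Of the further xenobiotic targets, 6 of 10 listed were measured, and 1, *Cyp2s1*, was at least 2-fold higher in both TGF-β comparisons. At 1.5-fold 2 were higher and 1 lower without IL-1β (1.28% and 1.77% of all genes), and 1 was higher and 3 lower with it (1.21% and 1.79%), and the list medians were -0.03 and -0.26. Among these are *Aldh3a1*, higher without IL-1β, and *Serpinb2*, lower with it, neither of which was above the dim signals in any array. *Scin*, also among the lower ones, was above the dim signals in all 5 arrays. It differed with TGF-β by -0.02 without IL-1β and by -0.77 with it. *Cyp2s1*, another monooxygenase, was at 8.47 in classic Th9 and 9.04 in triple Th9 cells, against 7.67 in IL-1β Th9, 7.43 in Th2 and 6.27 in Th1 cells, differences of 1.04 and 1.36. Like *Cyp1a1*, it did not have a smaller difference with IL-1β. *Cyp1a2*, the liver relative of *Cyp1a1*, was between 5.27 and 5.59, near the limit of the dim signals, and in IL-1β Th9 cells not above it. *Ptgs2*, which encodes an inducible cyclooxygenase, was at 5.68 in triple Th9 against 6.44 in IL-1β Th9 cells. In classic Th9 cells *Ptgs2*, at 4.79, was not above the dim signals, and it was at 5.42 in Th2 cells. Of 15 measured T cell genes linked to AHR, 2 were at least 1.5-fold higher and 1 lower without IL-1β, and 1 was higher and 1 lower with it. The list medians were -0.005 and -0.03. *Foxp3*, the regulatory T cell factor, was higher by 0.92 and 0.56, and *Maf*, which encodes a factor for IL-10 and IL-21 production, by 0.77 and 0.63. The gene 1.5-fold lower was *Il21* without IL-1β and *Entpd1* with it. *Il21* differed by -0.60 and -0.07, and in classic Th9 cells, at 5.14, was not above the dim signals. *Entpd1* differed by -0.12 and -0.74, and *Il10* by 0.45 and -0.29. *Il22*, the cytokine whose production by T cells is best known to need AHR, and *Il17a* were not above the dim signals in any array.

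The proteins around the receptor differed little. Of 10 measured chaperones and coregulators of 12 listed, none reached 1.5-fold in either TGF-β comparison, and their median differences were -0.01 and 0.02, where all genes had medians of 0.02 and 0.01. Among the 13 other genes of the basic helix-loop-helix PAS family, *Npas2*, a partner of the clock protein BMAL1, was at least 2-fold higher in both, by 1.61 and 1.30. *Arntl*, which encodes BMAL1, was higher by 0.43 and 0.24. *Hif3a*, a hypoxia-inducible factor, was 1.5-fold lower without IL-1β, at -0.63, and differed by -0.47 with it. Of 11 measured hypoxia-inducible factor targets none reached 1.5-fold, with medians of 0.09 and 0.01.

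NRF2 also controls *Nqo1*, and its part in the *Nqo1* values was not tested. A list of NRF2, its inhibitor *Keap1* and its targets was compared as well. Of 13 measured genes, none reached 1.5-fold without IL-1β, and with IL-1β *Slc7a11*, the cystine transporter, was lower, at -0.68. The median was 0.05 without and -0.13 with IL-1β, and *Hmox1*, heme oxygenase, differed by -0.26 and -0.33. Of the 11 other poly(ADP-ribose) polymerase genes measured, *Parp12* was 1.5-fold lower in both comparisons, at -0.64 and -0.72, and none was higher. Without IL-1β this was the direction opposite to *Tiparp*, whose difference with IL-1β, 0.10, was within the dim-signal SD. Of 13 measured genes for the synthesis and uptake of tryptophan-derived ligands, none was 1.5-fold higher with TGF-β, and *Ido1*, *Kmo* and *Tph1* were lower without IL-1β, at -0.72, -0.74 and -0.68, with *Tph1* not above the dim signals in either TGF-β array. *Ido1*, which opens the kynurenine path, was at 6.14 in classic Th9 and 7.54 in triple Th9 cells, and at 7.69 in IL-1β Th9, 6.85 in Th2 and 6.45 in Th1 cells.

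Of 10 measured TGF-β response genes, 4 were at least 1.5-fold higher in each TGF-β comparison and 0 lower, with medians of 0.39 and 0.33, where 1.28% and 1.21% of all genes were that much higher. This list, too, was chosen with values of these arrays known, and is no independent check of the labels. *Tgif1*, a corepressor in the TGF-β pathway, differed by -0.23 and -0.21, and *Smad7*, its inhibitory Smad, by 0.18 and -0.07. *Nt5e*, the ectoenzyme CD73, was higher by 2.31 and 1.07, *Itgae*, the integrin CD103, by 1.52 and 0.67, and *Ctla4*, an inhibitory receptor, by 1.02 and 0.86. *Nt5e* and *Itgae*, like *Cyp1b1* and *Tiparp*, had the smaller difference where IL-1β was present.

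**Figure D5:**
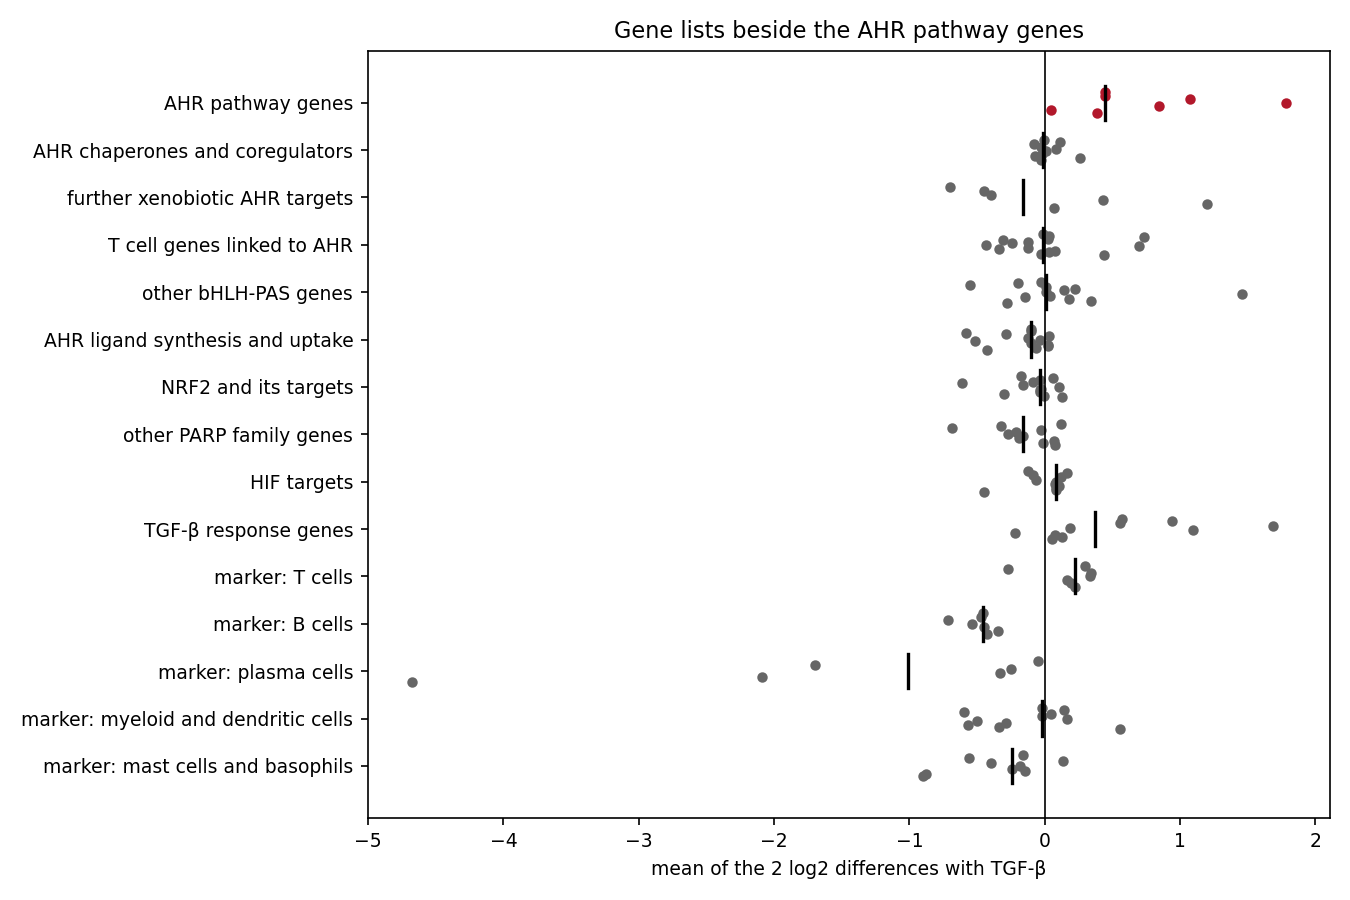
Mean of the 2 log2 differences with TGF-β for each gene of the pathway and of the lists around it, with 1 point per gene and the median of a list as a bar. The 7 genes run from 0.05 to 1.78 with a median of 0.45, the TGF-β response genes have a median of 0.37, and the lists of chaperones, NRF2 targets and hypoxia-inducible factor targets have medians between -0.04 and 0.08.

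Markers of other cells differed between the same arrays, and their part in the pathway genes' values was not tested. The summed signal of 7 measured T cell markers, as log2, was 14.38 and 14.23 in the TGF-β arrays and 14.03 to 14.17 in the others. That of 7 B cell markers was 13.20 and 13.37, against 13.17 to 13.81, and *Cd79a*, a subunit of the B cell receptor, was between 11.74 and 12.33 in all 5 arrays. That of 6 plasma cell markers was 11.11 and 11.07, against 12.23 in IL-1β Th9, 12.09 in Th2 and 10.73 in Th1 cells. *Xbp1*, also used outside plasma cells, made up much of that sum, while *Mzb1* differed with TGF-β by -2.20 without IL-1β and -1.98 with it, and *Derl3* by -1.72 and -1.67. *Jchain*, the joining chain of secreted antibodies, was at 4.68 in classic Th9 and 4.89 in triple Th9 cells, not above the dim signals, against 9.63 in IL-1β Th9, 9.30 in Th2 and 7.03 in Th1 cells. The 11 myeloid and dendritic cell markers summed to 10.30 and 10.27, against 9.69 to 10.55, with *Cd14*, *Mrc1*, *Xcr1* and *Siglech* not above the dim signals in any array. *Lyz2* and *Cd68* were above the dim signals in all 5 arrays and differed with TGF-β in opposite directions. The differences were 0.37 without IL-1β and 0.75 with it for *Lyz2*, and -0.52 and -0.48 for *Cd68*. The 9 mast cell and basophil markers summed to 9.37 and 9.32, against 9.89 to 10.93, with *Fcer1a*, *Ms4a2*, *Tpsb2* and *Cma1* not above the dim signals and the highest sum, in Th1 cells, carried by *Il18r1* at 10.44, a gene of Th1 cells too. *Mcpt8* and *Cpa3* were above the dim signals in all 5 arrays. *Mcpt8* differed with TGF-β by -1.10 without IL-1β and -0.69 with it, and *Cpa3* by -1.01 and -0.75. No marker of this list was 1.5-fold higher in either comparison. The 7 innate lymphoid and Th17 cell markers summed to 11.65 and 11.41, against 11.10 to 11.38, with *Il23r*, *Il17a* and *Il22* not above the dim signals. That last sum was carried by *Id2*, a gene that T cells express too, at 11.47 and 11.23 in the TGF-β arrays and 10.66 to 11.19 in the others.

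The genes with the most similar profiles were also listed. By Euclidean distance of centred log2 profiles over the 5 arrays, among 10491 genes, the closest to *Cyp1a1* were *Antxr1* (0.75), *Tmem176b* (0.76), *Cyp2s1* (0.83), *Neurl3* (0.85) and *Tmem176a* (0.87). The closest to *Cyp1b1* was *Sh2d1a* (0.66), to *Ahrr* *Tent5a* (0.23), to *Tiparp* *Scd1* (0.15) and to *Ahr* *Ppp2r3a* (0.19). The distances are descriptions over 5 arrays. No gene came as close to *Cyp1a1* or *Cyp1b1* as the nearest genes did to *Ahr*, *Ahrr* and *Tiparp*.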

How the data were processed

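RNA of each preparation was hybridized to 1 Affymetrix Mouse Gene 2.0 ST array, 5 in all. The log2 values deposited by the authors, made with the RMA method of Affymetrix Expression Console (background correction, joint normalization and a summary per transcript cluster), were used unchanged. Neither program versions nor a genome build is given in the sources used here. No value was missing. The annotation gives 1 symbol to 23521 of 41345 transcript clusters and several to 1820, none of these with a pathway gene, and the others are unnamed here. All 7 genes matched RefSeq by Entrez ID.

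Differences are between log2 values of 2 arrays, in 6 comparisons. No test was run, and the number of arrays limits the precision. Genes were counted at 2-fold and 1.5-fold. The pathway genes and the 15 further lists were chosen with earlier results of these data known. Genes named in a list are up to 4 with the largest mean difference with TGF-β, and others were named after their values were seen. Culture doses come from the methods. Python 3.11.15 with numpy 2.4.6, pandas 2.3.3 and matplotlib 3.10.9 was used.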

Additional observations from a re-analysis of the deposited data

Results flagged for a closer look

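For 4 genes the difference with IL-1β had opposite signs without and with TGF-β, each as 1 array against 1 array, and these differences between backgrounds were not tested. The comparison without TGF-β also differs in IL-2, which only the Th2 medium held, and IL-1β and IL-2 cannot be told apart there. *Cyp1b1* differed by 0.26 in IL-1β Th9 against Th2 cells and by -0.53 in triple Th9 against classic Th9 cells. *Tiparp* differed by 0.053 and -0.63 in the same comparisons, *Ahrr* by 0.13 and -0.34, and *Ahr* by 0.17 and -0.10. All 4 values without TGF-β, and that of *Ahr* with TGF-β, were within the SD of the dim signals. The opposite signs were lost for *Ahr* with the arrays centred on T cell markers, where its value with TGF-β was 0.03. They were lost for *Tiparp* with 75th-percentile centring, where its value without TGF-β was -0.01.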

How the results depend on the processing

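Of 252 differences of the 7 genes recomputed under other settings, 244 moved by less than the SD of the dim signals, 8 moved by more, and none that reached 1.5-fold changed sign. At 1.5-fold in place of 2-fold, the count was 5 higher with TGF-β without IL-1β, 3 higher with TGF-β with IL-1β, 2 lower with IL-1β in the presence of TGF-β, 5 lower in IL-1β Th9 against classic Th9 cells and 2 higher in Th2 against Th1 cells. With the arrays centred on T cell markers, fewer genes passed 1.5-fold in all of these but Th2 against Th1 cells. There *Tiparp* was also 1.5-fold higher, at 0.62. *Ahr* lies at the 2-fold limit in Th2 against Th1 cells, and 0 genes were 2-fold higher there with 75th-percentile centring, a second quantile normalization or log2(value + 16). Centring on T cell markers moved the median of all genes by -0.19 and -0.18 in the TGF-β comparisons without and with IL-1β, and by 0.31 in IL-1β Th9 against classic Th9 cells, where 1 gene in place of 2 was then 2-fold lower (*Cyp1a1*, at -1.52). The mean over both transcript clusters of *Tiparp* gave -0.06 with TGF-β in the presence of IL-1β and 0.26 in Th2 against Th1 cells. Without the Th1 array, both TGF-β arrays were above the others for 6 genes. By Pearson correlation the 5 closest genes shared 1 with the list of *Cyp1a1* and 0 with those of *Ahr*, *Ahrr*, *Cyp1b1* and *Tiparp*. No paired analysis was possible because each condition has 1 array, so no replicate could be left out either.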

Other observations

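*Ido1* and *Ido2*, the enzymes that turn tryptophan into the precursor of kynurenine, a ligand of the receptor, were higher in both comparisons with IL-1β, of which the one against Th2 cells also differs in IL-2. *Ido1* differed by 1.41 in triple Th9 against classic Th9 cells and by 0.84 in IL-1β Th9 against Th2 cells, and *Ido2* by 1.26 and 0.95. In these comparisons *Cyp1a1* differed by -0.02 and -0.08, and a link between these values was not tested. *Npas2* was lower with IL-1β, at -1.04 in the presence of TGF-β and -0.73 without it.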
